A study of Mus musculus with 6 samples.

Results

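Stc2, Pcyt1b and Homer2 were each lower in every Sox2 KO library of mouse pylorus than in any Sox2 WT library, while their paralogs Stc1, Pcyt1a, Homer1 and Homer3 overlapped between the groups. These 7 genes make up the set described here, of 39179 genes in the deposited table and 14045 genes tested. Stc2, Pcyt1b and Homer2 were picked with this same comparison in view, in which they were among the genes with the smallest p-values. Their differences are therefore a description and carry no test. The 4 paralogs were taken by name and were tested.

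RNA sequencing covered 3 Sox2 KO and 3 Sox2 WT libraries of pylorus, the outlet of the stomach. Sox2 KO mice carried CreER at the Rosa26 locus and floxed Sox2 alleles, and Sox2 WT mice carried the same floxed alleles with a wild-type Rosa26 locus. The Rosa26 promoter is active in nearly all cell types, so that deletion was not limited to a single gastric lineage. All mice were C57BL/6 x 129 mixed, received tamoxifen at 8 weeks of age and were sampled 2 weeks later. The series text puts sampling at 10 weeks, whereas the age label of every library reads 8 weeks. The muscle layer was peeled away after a cold incubation, and RNA came from the epithelium and mesenchyme together. Whether every library came from its own animal is not labelled, so a p-value reflects only how far these libraries spread, part of which may be technical.

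Stanniocalcins are secreted glycoproteins, first known as calcium-regulating hormones of fish, that in mammals bind and inhibit the metalloproteinases PAPP-A and PAPP-A2 and so keep insulin-like growth factors bound to their binding proteins. Pcyt1a and Pcyt1b encode the alpha and beta forms of CTP:phosphocholine cytidylyl-transferase, the regulated step of the CDP-choline route to phosphatidylcholine. Homer proteins are scaffolds whose EVH1 domain binds proline-rich stretches of metabotropic glutamate receptors, inositol trisphosphate receptors, ryanodine receptors and Shank proteins. Outside neurons they are known to shape calcium signals in secretory cells such as those of the pancreas.

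Values of single libraries are given in the order of replicates 1 to 3. At least 21923203 to 32455361 reads lay in genes per library, by reads recovered from the RPKM values. Between libraries of the same group these reads differed by more than counting error, with a chi-square per degree of freedom of 41.9 to 230. Sox2 itself, which encodes a transcription factor of gastric stem and progenitor cells, was at 0.342, 0.210 and 0.420 RPKM in Sox2 KO, against 11.1, 9.03 and 10.9 RPKM in Sox2 WT. Its log2 fold change, the Sox2 KO mean of log2(RPKM + 0.5) minus that of Sox2 WT, was -3.72 (SE 0.147, limma adjusted p = 2.9e-04). Of 14045 tested genes 4 passed an adjusted p of 0.05 (0.0285%). Of these, 2 were higher in Sox2 KO (0.0142%) and 2, Sox2 and Gsdmc2, were lower (0.0142%). With quantile normalization, as with median-of-ratios rescaling, 1 was higher and 2 were lower. Xist, transcribed from the inactive X chromosome of females, was at no more than 0.0103 RPKM in the 3 Sox2 KO libraries, and it was at 0.0124, 36.3 and 33.3 RPKM in the Sox2 WT libraries. By this gene the Sox2 KO libraries and Sox2 WT replicate 1 were male, and Sox2 WT replicates 2 and 3 were female. Sox2 WT replicate 1 therefore came from a different animal than Sox2 WT replicates 2 and 3. Sex and genotype thus differed together, and Sox2 WT replicate 1 is the male library against which each gene can be read.

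Stc2, a stanniocalcin known to be induced by endoplasmic reticulum stress (ENSMUSG00000020303, chromosome 11, 31357307 to 31370074, minus strand, mm10), was at 2.75, 2.10 and 1.91 RPKM in Sox2 KO, against 6.21, 6.00 and 7.42 RPKM in Sox2 WT. The highest Sox2 KO library lay well below the lowest Sox2 WT library, and the male Sox2 WT library stood between the other two. The Sox2 KO mean of 2.26 ± 0.438 RPKM was 34.5% of that in Sox2 WT, 6.54 ± 0.763 RPKM (SD, n = 3 each). These levels rested on 579, 432 and 459 reads in Sox2 KO and on 1060, 1190 and 1338 reads in Sox2 WT. Its log2 fold change was -1.36 (SE 0.150), and its limma adjusted p of 0.0577, the 7th smallest p of the comparison, is part of what chose it. In bulk tissue, fewer cells that express a gene and less RNA per cell cannot be told apart, here and for each gene that follows.

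Pcyt1b, the beta cytidylyl-transferase, known for its expression in brain and gonads (ENSMUSG00000035246, chromosome X, 93654863 to 93749951, plus strand), was at 0.866, 0.733 and 0.849 RPKM in Sox2 KO, against 2.37, 2.25 and 2.37 RPKM in Sox2 WT. The gene lies on the X chromosome; the male Sox2 WT library had the level of the 2 female ones, and each male Sox2 KO library was far below it. The Sox2 KO mean of 0.816 ± 0.0722 RPKM was 35.0% of that in Sox2 WT, 2.33 ± 0.0659 RPKM (SD, n = 3 each). Its level was low, and 138, 114 and 154 reads stood behind it in Sox2 KO and 306, 338 and 323 reads in Sox2 WT. Counting error alone was 8.06% to 9.37% of the value in Sox2 KO and 5.44% to 5.72% in Sox2 WT, while the spread between libraries was 8.85% and 2.83%. The log2 fold change was -1.11 (SE 0.118) with a pseudocount of 0.5 and -1.41 with one of 0.1, since the pseudocount compresses low values. The limma adjusted p of Pcyt1b, 0.0561 and the 6th smallest p, is part of what chose it and is no test of it. Of 502 tested genes on the X chromosome, 26 (5.18%) were lower in all 3 Sox2 KO libraries than in any Sox2 WT library, against 2.99% of all tested genes. Higher in all 3 Sox2 KO libraries were 17 of the 502, beside 575 of all 14045 tested genes (4.09%). By its values the sex marker Xist meets the rule for lower. The median log2 fold change over the 502 was 0.0016, and the part of sex in these counts was not tested.

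Homer2, a long form with a coiled-coil domain through which Homer proteins join (ENSMUSG00000025813, chromosome 7, 81600481 to 81707527, minus strand), was at 4.15, 3.95 and 4.49 RPKM in Sox2 KO, against 8.98, 7.45 and 8.80 RPKM in Sox2 WT. The groups did not overlap, and the male Sox2 WT library was the highest of the 6. The Sox2 KO mean of 4.20 ± 0.270 RPKM was 49.9% of that in Sox2 WT, 8.41 ± 0.840 RPKM (SD, n = 3 each). With 1280 to 2502 reads per library, counting error was at most 2.80% of the value. The log2 fold change was -0.92 (SE 0.115). The limma adjusted p of Homer2, 0.111 and the 9th smallest p, is part of what chose it and is no test of it. Over all tested genes, 36 (0.256%) had a log2 fold change at or below that of Homer2, and 420 (2.99%) were lower in every Sox2 KO library than in any Sox2 WT library. The choice itself put 3 of the 7 genes described here among these 420.

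**Figure D1:**
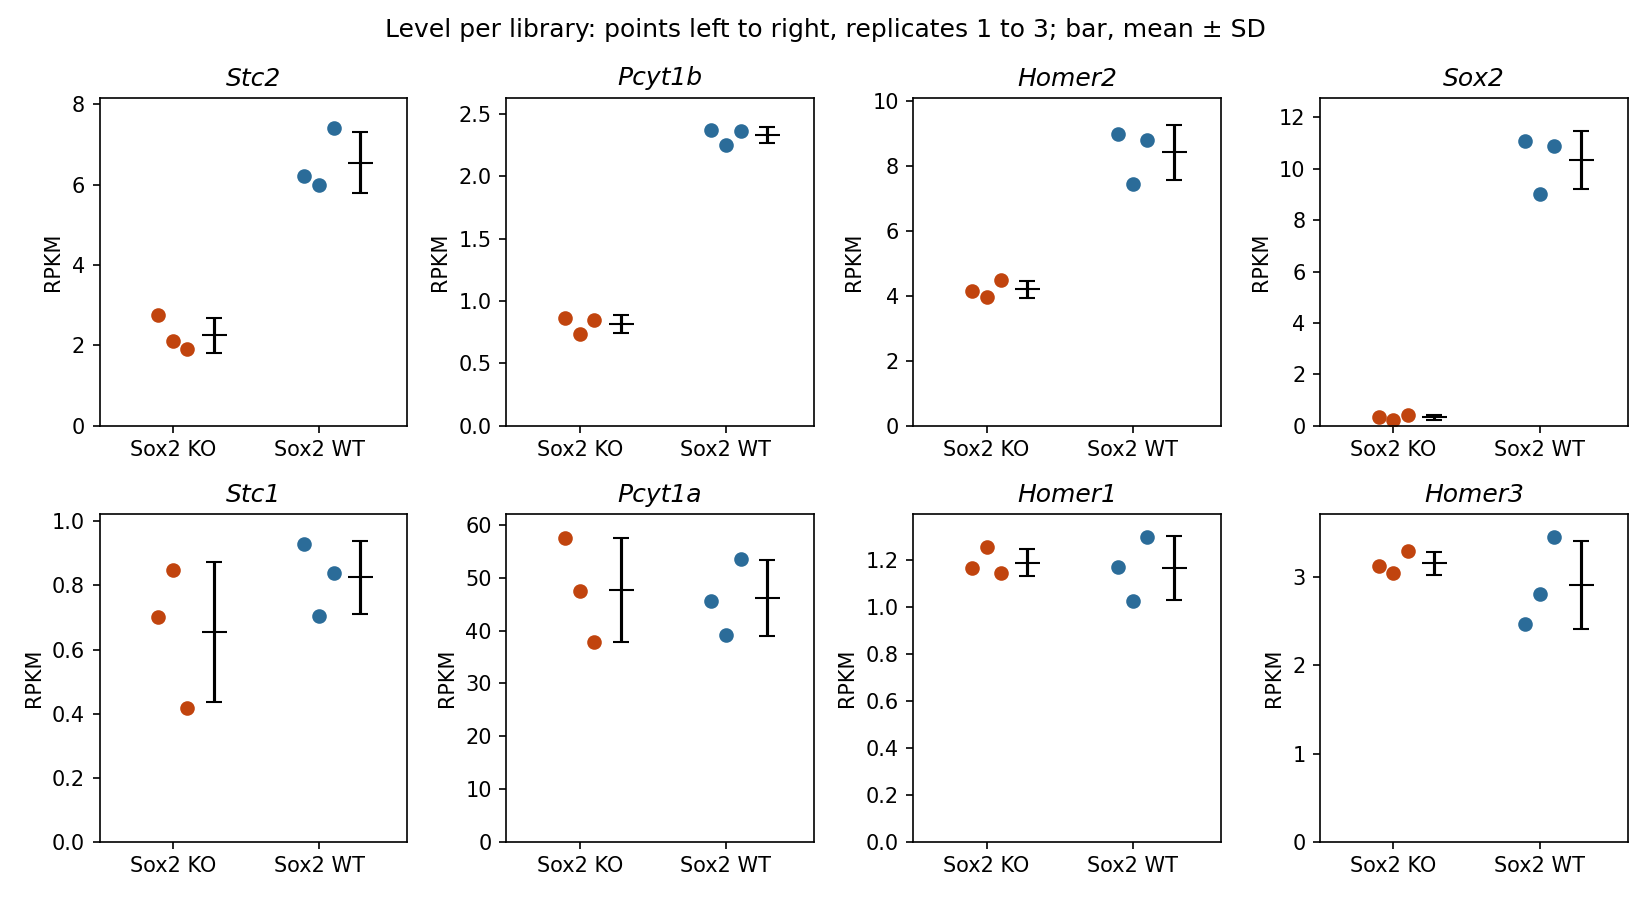
RPKM of the 7 genes and of Sox2 in each library, Sox2 KO on the left and Sox2 WT on the right of each panel; points are replicates 1 to 3 and bars are mean ± SD (n = 3). Stc2, Pcyt1b and Homer2 sit at 34.5%, 35.0% and 49.9% of their Sox2 WT means, and the points of Stc1, Pcyt1a, Homer1 and Homer3 overlap between the groups.

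The sequence before the start of each of the 3 genes is shown because the deleted gene encodes a DNA-binding protein. That the 3 were low in the same libraries follows from how they were chosen, and regulation by Sox2 was not tested. RefSeq promoter windows on GRCm38.p6, each of 250 bases before to 50 bases after a start, were held for 6 of the 7 genes, in 11 windows, and CATTGT, letters within the SOX consensus, was searched on both strands. The upstream 250 bases of Stc2 (chr11:31370062-31370311, minus strand), of the first start of Pcyt1b (chrX:93654613-93654862, plus strand) and of the first start of Homer2 (chr7:81706926-81707175, minus strand) read 5′ to 3′ as follows, with matches in capitals, here the reverse complement ACAATG.
Stc2: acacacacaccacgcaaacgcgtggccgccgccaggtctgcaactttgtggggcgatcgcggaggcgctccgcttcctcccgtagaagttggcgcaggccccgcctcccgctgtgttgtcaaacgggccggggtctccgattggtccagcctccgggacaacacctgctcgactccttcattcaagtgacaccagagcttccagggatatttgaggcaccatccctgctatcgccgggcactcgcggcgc
Pcyt1b: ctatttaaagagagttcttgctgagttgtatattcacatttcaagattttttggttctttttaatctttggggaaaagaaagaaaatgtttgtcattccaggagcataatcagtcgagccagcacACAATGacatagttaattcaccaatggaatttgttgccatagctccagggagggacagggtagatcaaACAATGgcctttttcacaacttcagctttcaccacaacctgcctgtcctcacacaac
Homer2: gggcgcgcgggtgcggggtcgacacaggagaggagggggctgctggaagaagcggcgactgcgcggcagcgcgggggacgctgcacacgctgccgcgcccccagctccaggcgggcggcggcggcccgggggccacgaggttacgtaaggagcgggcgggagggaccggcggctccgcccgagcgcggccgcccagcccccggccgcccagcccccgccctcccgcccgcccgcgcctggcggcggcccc

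The Pcyt1b window held CATTGT on the opposite strand at 2 places, whose first bases are at -125 and -57 relative to the start. The letters occurred at least once in 4129 of 32851 windows (12.6%) and at 2 or more places in 365 (1.11%). They were not in the windows printed for Stc2 and Homer2, nor in a second window of Pcyt1b and of Homer2. Other spellings of the SOX consensus were not searched, so a window without CATTGT may still hold one. Pcyt1a, which overlapped between the groups, had them once in 1 of its windows. A match describes letters and is not evidence of binding, and windows without one say nothing of sites elsewhere. Base composition also differed: the printed Pcyt1b window was 42.0% G and C over its 300 bases, against 64.7% for Stc2 and 82.3% for Homer2, with a median of 52.7% over all windows.

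None of the 4 paralogs passed an adjusted p of 0.05, which 0.0285% of all tested genes passed. The adjusted p of Stc2, Pcyt1b and Homer2 also lay above 0.05, so passing does not separate them from their paralogs. Stc1, the second stanniocalcin (ENSMUSG00000014813, chromosome 14, 69029238 to 69041804, plus strand), was at 0.700, 0.846 and 0.418 RPKM in Sox2 KO, against 0.931, 0.706 and 0.839 RPKM in Sox2 WT. Sox2 KO replicate 3 was lowest, replicate 1 lay just under the lowest Sox2 WT value and replicate 2 within the Sox2 WT range. The Sox2 KO mean was 0.655 ± 0.218 RPKM and the Sox2 WT mean 0.825 ± 0.113 RPKM (SD, n = 3 each), with a log2 fold change of -0.21 (95% interval -0.64 to 0.21, limma adjusted p = 0.9995). Only 53 to 92 reads per library stood behind these values, a counting error of 10.4% to 13.7%. The spread between libraries was 33.3% in Sox2 KO and 13.7% in Sox2 WT.

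Pcyt1a, the alpha cytidylyl-transferase of most tissues (ENSMUSG00000005615, chromosome 16, 32430921 to 32475070, plus strand), was at 57.5, 47.5 and 37.9 RPKM in Sox2 KO, against 45.7, 39.1 and 53.5 RPKM in Sox2 WT. The 2 groups covered nearly the same range. The Sox2 KO mean was 47.6 ± 9.82 RPKM and the Sox2 WT mean 46.1 ± 7.19 RPKM (SD, n = 3 each), with a log2 fold change of 0.038 (95% interval -0.39 to 0.47, limma adjusted p = 0.9995), and of -0.012 under quantile normalization.

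Homer1, which also gives rise to the short immediate early form Homer1a that the gene value does not separate (ENSMUSG00000007617, chromosome 13, 93299635 to 93405129, plus strand), was at 1.16, 1.25 and 1.14 RPKM in Sox2 KO, against 1.17, 1.03 and 1.30 RPKM in Sox2 WT. All 3 Sox2 KO values lay inside the Sox2 WT range, and the log2 fold change was 0.023 (95% interval -0.28 to 0.32, limma adjusted p = 0.9995), and -0.00053 under quantile normalization. Homer3, the third Homer scaffold (ENSMUSG00000003573, chromosome 8, 70282827 to 70294361, plus strand), was at 3.12, 3.05 and 3.30 RPKM in Sox2 KO, against 2.46, 2.82 and 3.45 RPKM in Sox2 WT. The Sox2 KO values again lay inside the Sox2 WT range, with a log2 fold change of 0.11 (95% interval -0.21 to 0.43, limma adjusted p = 0.9995). In the annotation Homer3 overlaps Ddx49 on the opposite strand, which was at 16.2 to 20.5 RPKM in Sox2 KO and 15.3 to 22.0 RPKM in Sox2 WT. Strandedness is not given in the sources used here, so some reads counted for Homer3 may come from Ddx49. This limit also holds for the ratios, family shares and order of levels below that include Homer3.

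**Figure D2:**
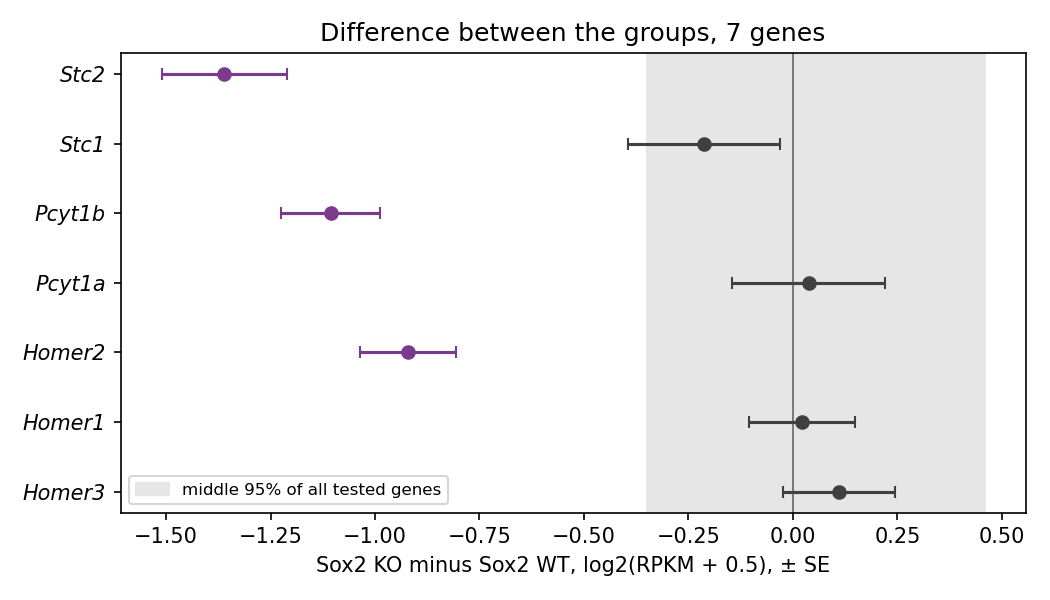
Log2 fold change, the Sox2 KO mean of log2(RPKM + 0.5) minus that of Sox2 WT, for the 7 genes, with bars of 1 SE from limma, over the middle 95% of all tested genes, -0.35 to 0.46, in grey. Stc2, Pcyt1b and Homer2, in purple, were chosen by this difference and lie at -1.36, -1.11 and -0.92; the 4 paralogs lie inside the grey band.

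Set against its paralog within each library, each of the 3 genes gave a lower ratio in Sox2 KO. The ratio of Stc2 to Stc1 in RPKM was 3.93, 2.48 and 4.58 in Sox2 KO, against 6.67, 8.50 and 8.85 in Sox2 WT. For Pcyt1b to Pcyt1a it was 0.0151, 0.0154 and 0.0224 in Sox2 KO, against 0.0519, 0.0576 and 0.0442 in Sox2 WT. The ratio of Homer2 to Homer1 was 3.57, 3.15 and 3.92 in Sox2 KO, against 7.68, 7.26 and 6.78 in Sox2 WT. That of Homer2 to Homer3 was 1.33, 1.30 and 1.36 in Sox2 KO, against 3.64, 2.64 and 2.55 in Sox2 WT. None of the 4 ratios overlapped between the groups. One side of each ratio was chosen for its difference, so no test is given.

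**Figure D3:**
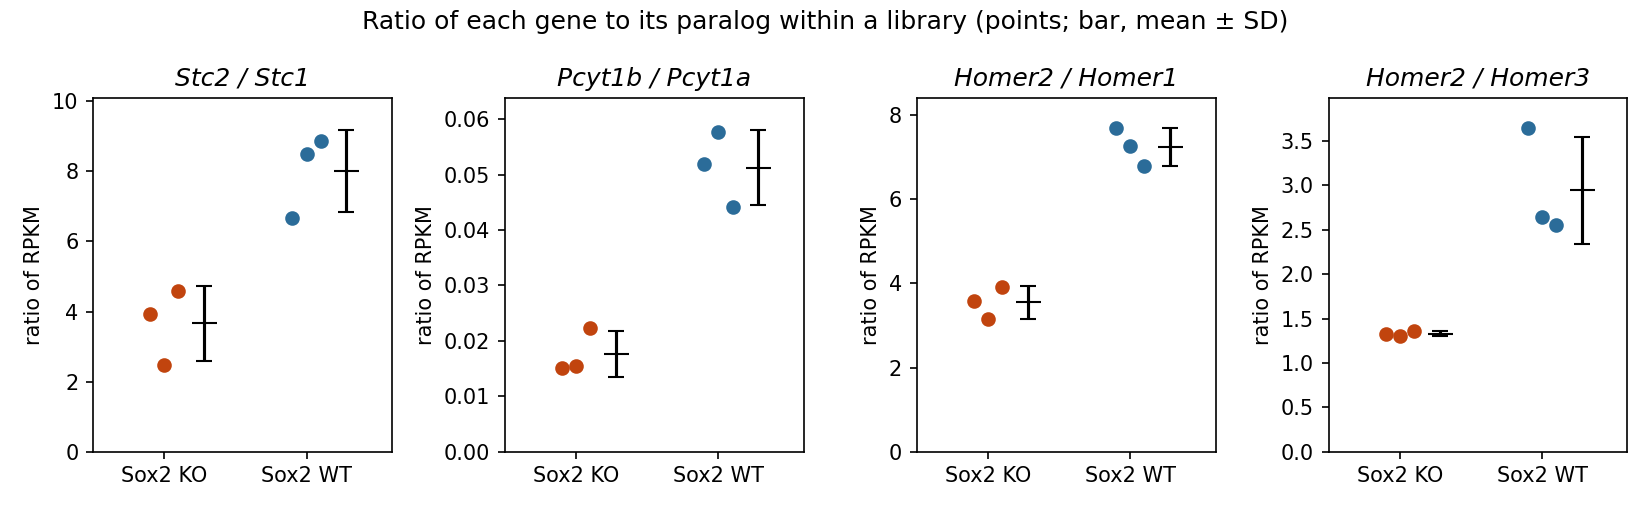
Ratio of RPKM of a gene to its paralog in each library, Sox2 KO left and Sox2 WT right; points are replicates 1 to 3 and bars are mean ± SD (n = 3). Mean ratios were 3.66 and 8.01 for Stc2 to Stc1, 0.0176 and 0.0513 for Pcyt1b to Pcyt1a, 3.55 and 7.24 for Homer2 to Homer1, and 1.33 and 2.95 for Homer2 to Homer3, in Sox2 KO and in Sox2 WT.

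The genes differed in how much of their family's summed level they held. Stc2 was the main stanniocalcin, at 77.7 ± 5.67% of the summed RPKM of both genes in Sox2 KO and 88.8 ± 1.57% in Sox2 WT. That sum was 2.91 ± 0.560 RPKM in Sox2 KO and 7.37 ± 0.798 RPKM in Sox2 WT. Pcyt1b held only 1.73 ± 0.399% of the summed cytidylyl-transferase level in Sox2 KO and 4.87 ± 0.608% in Sox2 WT. That sum, nearly all of it Pcyt1a, was 48.5 ± 9.83 RPKM in Sox2 KO and 48.4 ± 7.25 RPKM in Sox2 WT. Homer2 held 49.1 ± 1.18% of the summed Homer level in Sox2 KO and 67.4 ± 3.35% in Sox2 WT. The sum was 8.54 ± 0.349 RPKM in Sox2 KO and 12.5 ± 1.14 RPKM in Sox2 WT (SD, n = 3 each, for all these values).

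Ordered by mean RPKM, which is per length, the Sox2 KO libraries ran Pcyt1a, Homer2, Homer3, Stc2, Homer1, Pcyt1b and Stc1, and the Sox2 WT libraries Pcyt1a, Homer2, Stc2, Homer3, Pcyt1b, Homer1 and Stc1. In Sox2 KO the values of neighbours in that order did not overlap, except Pcyt1b and Stc1. In Sox2 WT none overlapped, although the highest Stc2 value, 7.42 RPKM, nearly met the lowest Homer2 value, 7.45 RPKM.

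The genes whose pattern was most like each of the 3 were sought by Pearson's r of log2(RPKM + 0.5) over the 6 libraries, among 7198 genes with a mean of at least 5 RPKM, leaving out the 7 genes themselves, Xist, genes of the Y chromosome and genes with Gm or Rik symbols. The libraries fall into 2 groups, so a high r mostly records a like split between them and is given as a description. Sox2 and Tph1, a tryptophan hydroxylase gene of serotonin-making cells, were among the 4 nearest of these for all 3: r was 0.97 and 0.985 for Stc2, 0.999 and 0.982 for Pcyt1b, and 0.991 and 0.986 for Homer2. Within groups, of the Sox2 KO libraries, replicate 2 was lowest for Sox2, Pcyt1b and Homer2. Stc2 went otherwise there, with replicate 3 lowest at 1.91 RPKM, against 2.10 RPKM in replicate 2. Of the Sox2 WT libraries replicate 2 was lowest for Sox2, Pcyt1b, Homer2 and Stc2. How many of all genes share these orders was not counted. Counting error leaves some of these orders uncertain. In Sox2 KO it was 16.9% to 25.8% for Sox2, on 25, 15 and 35 reads, and 8.06% to 9.37% for Pcyt1b. In Sox2 WT it was 5.44% to 5.72% for Pcyt1b, whose values there were 2.37, 2.25 and 2.37 RPKM.

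The remaining near genes of Stc2 were Clu, a secreted chaperone, with an r of 0.989, and Cxcl17, a mucosal chemokine, with an r of 0.987. Clu was at 393, 370 and 365 RPKM in Sox2 KO, against 476, 447 and 492 RPKM in Sox2 WT. Cxcl17 was at 74.5, 70.5 and 69.1 RPKM in Sox2 KO, against 94.5, 98.6 and 110 RPKM in Sox2 WT. Those of Pcyt1b were Scara3, a scavenger receptor gene, with an r of 0.976, and Prps1, an X-linked gene of phosphoribosyl pyrophosphate synthesis, with an r of 0.969. Scara3 was at 9.77, 9.16 and 10.2 RPKM in Sox2 KO, against 17.4, 15.1 and 14.6 RPKM in Sox2 WT. Prps1 was at 7.605, 7.656 and 8.254 RPKM in Sox2 KO, against 10.99, 10.62 and 10.02 RPKM in Sox2 WT. Those of Homer2 were Gata4, an endoderm transcription factor, with an r of 0.986, and Pafah1b2, a subunit of the platelet-activating factor acetylhydrolase, with an r of 0.981. Gata4 was at 55.0, 54.8 and 56.0 RPKM in Sox2 KO, against 63.3, 59.7 and 61.5 RPKM in Sox2 WT, a smaller step with the same split. Among themselves the 3 genes had an r of 0.979 for Stc2 and Pcyt1b, 0.960 for Stc2 and Homer2 and 0.988 for Pcyt1b and Homer2. The choice of these 3 genes by the same comparison favours a high r among them. With their own paralogs, whose groups overlapped, r was 0.577 for Stc2 and Stc1 and -0.066 for Pcyt1b and Pcyt1a. It was -0.048 for Homer2 and Homer1 and -0.37 for Homer2 and Homer3.

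The genes next to the 3 on their chromosomes did not pass, against 0.0285% of all tested genes that did. These neighbours were taken as the nearest tested protein-coding gene on each side, a choice made after values were seen. Beside Pcyt1b, the DNA polymerase gene Pola1, 22.7 kb away, was at 3.27 ± 0.670 RPKM in Sox2 KO and 3.67 ± 0.947 RPKM in Sox2 WT. The pyruvate dehydrogenase kinase gene Pdk3, 14.7 kb away, was at 9.23 ± 1.22 RPKM in Sox2 KO and 9.49 ± 1.09 RPKM in Sox2 WT (SD, n = 3 each). Beside Homer2, the actin nucleation gene Whamm, 3.65 kb away, was at 6.98 ± 0.395 RPKM in Sox2 KO and 5.94 ± 0.750 RPKM in Sox2 WT (log2 fold change 0.22, SE 0.122, limma adjusted p = 0.9995). Whamm was higher in every Sox2 KO library without passing, a split found in that direction for 4.09% of all tested genes. On the other side of Homer2, Fam103a1, 55.4 kb away, had a log2 fold change of -0.050 (SE 0.158). Beside Stc2, the nearest were 255 kb and 295 kb away, Asb3 with a log2 fold change of 0.082 (SE 0.118) and Bod1 with 0.12 (SE 0.145).

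The pathways around the 3 genes were examined in 6 lists of 98 genes, of which 83 were tested. With limma 0 passed, against 0.0285% of all tested genes, and 1 had an unadjusted p under 0.05, Igfbp4, against 3.15% of all tested genes. On recovered reads with limma's voom 0 passed and 1 had an unadjusted p under 0.05. The groups did not overlap for 2 of the 83 (2.41%), against 7.08% of all tested genes, and the median log2 fold change was 0.0015, against 0.0211 for all.

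Around the stanniocalcins, 10 of 12 genes of the insulin-like growth factor axis were tested, 6 with a positive and 4 with a negative log2 fold change and a median of 0.081. Igfbp4, a binding protein that PAPP-A cleaves, was at 35.8, 37.7 and 47.1 RPKM in Sox2 KO, against 32.3, 31.2 and 29.0 RPKM in Sox2 WT. It was higher in every Sox2 KO library, as were 4.09% of all tested genes, but did not pass (log2 fold change 0.37, SE 0.130, limma adjusted p = 0.9995). The other binding protein genes with the highest levels, Igfbp3, Igfbp2 and Igfbp6, had log2 fold changes of 0.063, 0.19 and -0.082, and Igfbp2 ran from 5.79 to 31.95 RPKM within Sox2 WT alone. Pappa, the protease that stanniocalcins inhibit and chosen here for that role, was at 2.76, 2.42 and 1.698 RPKM in Sox2 KO, against 2.50, 2.41 and 0.773 RPKM in Sox2 WT, so the groups overlapped. The receptor gene Igf1r, named after its values were seen for the lowest log2 fold change of the list, -0.54 (SE 0.249), was at 1.88, 1.62 and 1.39 RPKM in Sox2 KO, against 3.93, 2.48 and 1.71 RPKM in Sox2 WT.

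Stc2 is a known target of the integrated stress response and of hypoxia, and no gene of either list passed. All 24 stress response genes were tested, 7 with a positive and 17 with a negative log2 fold change and a median of -0.047, and none had groups that did not overlap. Atf4, the transcription factor through which this response acts on Stc2, was at 107, 103 and 121 RPKM in Sox2 KO, against 87.8, 105 and 148 RPKM in Sox2 WT (log2 fold change -0.014, SE 0.198). The endoplasmic reticulum chaperone genes Hspa5, Hsp90b1 and Calr differed by log2 -0.036 (SE 0.151), -0.051 (SE 0.114) and -0.042 (SE 0.150). Of 15 hypoxia genes, all tested, 10 had a positive and 5 a negative log2 fold change with a median of 0.056. Slc2a1, the glucose transporter, had 0.11 (SE 0.199), the carbonic anhydrase gene Car9 had -0.11 (SE 0.174), the lactate dehydrogenase gene Ldha 0.21 (SE 0.166) and Ndrg1 0.065 (SE 0.264).

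The choline route on which Pcyt1b sits had 9 of 11 genes tested, 6 with a positive and 3 with a negative log2 fold change and a median of 0.12. The choline transporter-like genes Slc44a4, Slc44a2 and Slc44a1 averaged 70.7 ± 7.25, 52.7 ± 6.95 and 33.4 ± 5.01 RPKM in Sox2 KO. They averaged 59.1 ± 8.99, 45.8 ± 4.64 and 31.6 ± 3.16 RPKM in Sox2 WT (SD, n = 3 each). Chpt1, which makes phosphatidylcholine from CDP-choline, was at 47.0 ± 10.1 RPKM in Sox2 KO and 47.2 ± 7.61 RPKM in Sox2 WT (SD, n = 3 each). In the ethanolamine branch and in phospholipid remodelling, 10 of 11 genes were tested with a median of 0.048. Etnk1, the ethanolamine kinase, had a log2 fold change of -0.026 (SE 0.254). Ptdss1, a phosphatidylserine synthase, had 0.021 (SE 0.146). The lysophospholipid acyltransferases Lpcat3 and Lpcat4 had -0.064 (SE 0.137) and 0.20 (SE 0.108).

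Of 25 genes for partners of Homer proteins 15 were tested, 6 with a positive and 9 with a negative log2 fold change and a median of -0.097. Itpr3, an inositol trisphosphate receptor gene, was the most abundant partner gene, at 69.8, 50.1 and 39.2 RPKM in Sox2 KO, against 48.3, 37.7 and 54.5 RPKM in Sox2 WT (log2 fold change 0.15, SE 0.229). Itpr1, the neuronal and smooth muscle receptor, was at 2.79, 2.75 and 2.35 RPKM in Sox2 KO, against 3.92, 2.85 and 2.79 RPKM in Sox2 WT (log2 fold change -0.23, SE 0.151). Nfatc3 and Nfatc4, transcription factors that Homer proteins can bind, differed by log2 -0.13 (SE 0.104) and -0.16 (SE 0.117). Nfatc4, at 1.62, 1.66 and 1.63 RPKM in Sox2 KO, against 2.09, 1.73 and 1.86 RPKM in Sox2 WT, was lower in every Sox2 KO library without passing. Such a split in that direction was found for 2.99% of all tested genes. The scaffold gene Dlgap4 had a log2 fold change of 0.016 (SE 0.0970).

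**Figure D4:**
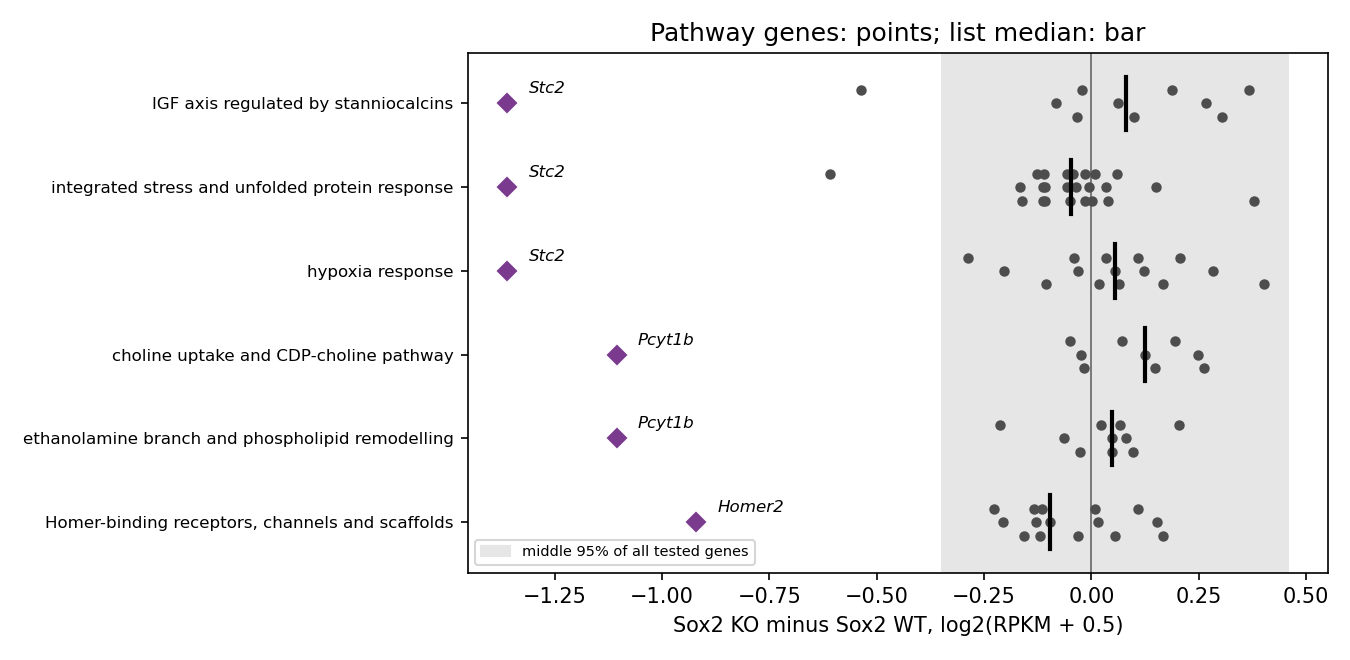
Log2 fold change, the Sox2 KO mean of log2(RPKM + 0.5) minus that of Sox2 WT, for each tested gene of the 6 pathway lists (points), with the list median as a black bar, beside Stc2, Pcyt1b or Homer2 as a purple diamond and the middle 95% of all tested genes in grey. List medians run from -0.097 for Homer partners to 0.12 for the choline route, while the diamonds lie at -1.36, -1.11 and -0.92.

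Marker lists of 14 cell types were summed in each library to see which moved with the 3 genes. For single markers, the groups did not overlap for 4.09% of all tested genes in the higher and 2.99% in the lower direction. For 11 of the 14 the summed level overlapped between the groups. Among these were smooth muscle, 368 to 579 RPKM in Sox2 KO and 381 to 594 RPKM in Sox2 WT, parietal cells, 694 to 1370 RPKM in Sox2 KO and 354 to 2680 RPKM in Sox2 WT, and enteroendocrine cells, 3790 to 7220 RPKM in Sox2 KO and 4280 to 7260 RPKM in Sox2 WT. The enteroendocrine sum was mostly Gast, the gastrin gene, at 2770, 4440 and 6090 RPKM in Sox2 KO, against 6380, 3060 and 3500 RPKM in Sox2 WT. Of the other tested genes of that list, Sst had a positive log2 fold change, 0.15, and Chga, Neurod1 and Ghrl had -0.49, -0.22 and -0.0081, none passing and all with overlapping groups. The remaining 1 of the 6, the granin gene Chgb, was lower in every Sox2 KO library, at 56.8, 68.4 and 67.5 RPKM, against 154, 100 and 130 RPKM in Sox2 WT, and did not pass (limma adjusted p = 0.298). Tuft cell markers summed to 18.7 to 29.0 RPKM in Sox2 KO and 6.99 to 9.84 RPKM in Sox2 WT, with 5 of 5 higher in every Sox2 KO library and 0 passing. Goblet and Paneth cell markers summed to 2190 to 4400 RPKM in Sox2 KO and 187 to 1110 RPKM in Sox2 WT, mostly Clca3. Of 5 tested, 2 were higher in every Sox2 KO library, Clca3 and Zg16, without passing (limma adjusted p = 0.838 and 0.127). Tff3 and Fcgbp had higher means in Sox2 KO but overlapping groups. The Paneth cell marker Lyz1, at 3 to 40 reads per library, had a log2 fold change of -0.28, also with overlap, and Muc2 was not tested. The list of pancreatic acinar markers summed to 289 to 456 RPKM in Sox2 KO and 507 to 540 RPKM in Sox2 WT, almost all of it the elastase gene Cela1. The other markers Prss2, Pnlip and Ctrb1 had 0 to 1, 0 to 5 and 3 to 48 reads per library, and Cpa1 was listed at 0 in all. The part of these cell types in the levels of Stc2, Pcyt1b and Homer2 was not tested.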

How the data were processed

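The authors' deposited values are RPKM, reads per kilobase of gene scaled to library depth, for 39179 Ensembl genes in 6 libraries; the 6 single-library tables equal the series table. CASAVA 1.7 and STAR with the build mm10 are named in the submitters' processing notes. For the counting tool, annotation, filters and strandedness: not given in the sources used here. RPKM steps gave whole reads for 100% of the 23538 genes above 0 (tolerance 1e-05 reads); each gene's smallest whole set was taken, so these reads, and the depth, are lower bounds, and their intervals cover counting error only. Log2(RPKM + 0.5) was fitted over 14045 genes with a mean of at least 0.5 RPKM, keeping of rows that share a symbol the highest. The tool was limma (3.58.1, under R 4.3.3), allowing prior variance to follow the mean; p-values were adjusted by Benjamini-Hochberg over all of them. The script was tested on simulated data. Coordinates come from GENCODE M21 on GRCm38, which is mm10, where 37607 identifiers matched. Alternatives were pseudocounts, filters, rescaling, quantile normalization, a replicate block, a sex covariate, voom on recovered reads and each library left out.

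Members and gene lists were chosen with earlier results of these data known. Named genes were the 7 members and Sox2; from each pathway list, passing genes, then those of highest mean until 4, and up to 3 whose groups do not overlap; and the 4 nearest patterns, members left out, of each of Stc2, Pcyt1b and Homer2. Some genes are not reported here.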

Additional observations from a re-analysis of the deposited data

How the results depend on the processing

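Counts of passing genes moved with the processing. The differences of Stc2, Pcyt1b and Homer2 kept their sign under all 15 alternatives, which lends them no support. These 3 genes were chosen by this comparison, and their groups did not overlap. Pseudocounts, filters, the replicate block, the sex covariate and leaving out a library could therefore not change their sign. Genes passing higher in Sox2 KO, 2 in the report, numbered 1 with no filter on low values, under quantile normalization and under median-of-ratios rescaling, and 0 with the replicate block and with sex as a covariate. Genes passing lower, also 2, numbered 1 with the replicate block, 1 with sex as a covariate and 6 with voom on recovered reads. Leaving out a library gave 0 to 5 higher and 1 to 4 lower: 4 and 4 without Sox2 KO replicate 1, 0 and 1 without Sox2 KO replicate 2, 2 and 1 without Sox2 KO replicate 3, 5 and 2 without Sox2 WT replicate 1, 0 and 3 without Sox2 WT replicate 2, and 0 and 1 without Sox2 WT replicate 3. The cause was not tested. Deviations from group means correlated at 0.0088, 0.097 and -0.074 across genes for libraries of equal replicate number 1, 2 and 3. For unequal numbers they correlated at -0.158 to 0.165. These values show no sign of pairing by number but, with 3 libraries per group, cannot settle it. Sox2 passed throughout. The log2 fold change ran from -1.55 to -1.22 for Stc2, -1.51 to -0.88 for Pcyt1b and -1.02 to -0.85 for Homer2; with sex as a covariate, which sets Sox2 KO against the male Sox2 WT replicate 1, it was -1.30, -1.13 and -1.02. With a pseudocount of 0.1 the log2 difference of Pcyt1b minus Pcyt1a between the groups was -1.45, against -1.14. Pcyt1a had -0.012 under quantile normalization and -0.11 to 0.19 with a library left out, and Homer1 -0.00053 and -0.039 to 0.080. No paralog and no pathway gene passed under any alternative; 16 of 25 named pathway genes changed sign under at least 1. Of the 7 genes, Stc1 and Pcyt1b had the fewest reads in a library, 53 and 114.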
